A study of Homo sapiens with 6 samples.

Results

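The high mobility group (HMG) chromatin proteins described here are the products of 10 genes: HMGA1 and HMGA2, HMGB1, HMGB2 and HMGB3, and HMGN1 to HMGN5. They were chosen by gene symbol from a table of 55882 genes, and all 10 members had a row. RNA was measured in DIvA cells, which derive from the human osteosarcoma line U2OS and carry AsiSI, a DNA-cutting enzyme that a fused hormone-binding domain keeps out of the nucleus until 4-hydroxytamoxifen (4-OHT) is given. Of the 6 libraries, 3 came from p53 WT cells and 3 from p53 KO cells, and every library came from cells given 300 nM 4-OHT for 5 h. No untreated cells are analysed here, and the labels say neither whether the KO cells are 1 clone or several, nor whether replicates were separate cultures. P-values therefore weigh the difference against the spread between these samples, which may be technical.

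HMG proteins are small, abundant and mobile nuclear proteins that bind chromatin transiently. HMGA proteins hold AT-hooks that enter the minor groove of AT-rich DNA. HMGB proteins bend DNA with their HMG boxes, and HMGN proteins bind the nucleosome core, where they compete with linker histone H1. HMGA2 is mainly a fetal gene that is switched on again in many tumours, and its transcript is a well known target of the let-7 microRNAs.

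The libraries held 20393909 to 79767519 counts. CDKN1A, the p53-induced cell cycle inhibitor, was at 542 ± 27.0 CPM (the count scaled to library size with TMM factors; SD, n = 3) in p53 WT and at 45.8 ± 3.68 CPM in p53 KO. Of 7 osteosarcoma or mesenchymal markers, 5 were lower and 1 was higher in p53 KO, and COL1A2 was near 0 in both groups (0.315 and 0.494 CPM). Markers of epithelial cells summed to 6.60 to 10.4 CPM in p53 WT and 13.5 to 20.2 CPM in p53 KO, and those of leukocytes and endothelial cells to at most 3.29 CPM in any library. Mitochondrially encoded genes took 4.79% to 4.92% of counts in p53 WT and 5.11% to 5.43% in p53 KO. The part of these shifts in the results below was not tested.

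Sequences are shown for the regulatory features that bear on the members. The mature let-7a microRNA is given first, with its seed (bases 2 to 8) in capitals. All 9 mature let-7 and miR-98 forms named -5p in the RefSeq table share this seed, GAGGUAG. Other mature forms were not included.
let-7a-5p: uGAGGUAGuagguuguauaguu
The 3' UTR of the principal HMGA2 transcript (GENCODE 29, GRCh38, plus strand, 3003 bases of UTR) held 4 exact matches to the seed, CTACCTC, shown in capitals with the 15 bases before and 1 after.
HMGA2 site 1, chr12:65963298-65963320: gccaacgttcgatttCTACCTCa
HMGA2 site 2, chr12:65964533-65964555: ccccactactcaataCTACCTCt
HMGA2 site 3, chr12:65964945-65964967: ttgacttgcaaagacCTACCTCc
HMGA2 site 4, chr12:65965798-65965820: aatcaaaacacactaCTACCTCt
Among the principal transcripts of 19548 genes, 8.32% held at least 1 match. Counting HMGA2 itself, 12 genes (0.0614%) held at least as many as HMGA2. The median UTR of these genes was 829.5 bases, shorter than that of HMGA2, and the shares are not matched for length. HMGA1 held 1 match in 1347 bases, and the other 8 members held none. The microRNAs themselves are not analysed here, and a match is a description of the sequence only.

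Promoters were read from the RefSeq table (GRCh38.p14), as the 250 bases before each start; some genes have more than 1 start, and a gene counts as holding a motif if any of its windows does. It matched 8 of the 10 members; HMGA2 and HMGB2 had no entry. The sequence CCAAT, the core that NF-Y binds, was searched on both strands and occurred in 6 of these 8 members, against 37.0% of 27305 genes with such a window. It occurred more than once in 4 members (HMGB1, HMGB3, HMGN1 and HMGN3), against 11.5% of all genes. Shares of all genes, here and for the motifs below, are not matched for the number of starts. A window each of HMGB1 and HMGN2 is shown because both transcripts differed between the groups, and that of HMGB3 because it held as many matches as HMGB1 while its level passed no test. Capitals mark CCAAT.
HMGB1, chr13:30465937-30466186, minus strand: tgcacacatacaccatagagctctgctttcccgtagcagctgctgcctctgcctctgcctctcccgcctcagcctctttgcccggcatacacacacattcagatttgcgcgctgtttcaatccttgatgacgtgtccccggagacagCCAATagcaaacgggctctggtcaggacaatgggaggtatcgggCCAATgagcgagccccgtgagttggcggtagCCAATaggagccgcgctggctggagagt
HMGB3, chrX:150983085-150983334, plus strand: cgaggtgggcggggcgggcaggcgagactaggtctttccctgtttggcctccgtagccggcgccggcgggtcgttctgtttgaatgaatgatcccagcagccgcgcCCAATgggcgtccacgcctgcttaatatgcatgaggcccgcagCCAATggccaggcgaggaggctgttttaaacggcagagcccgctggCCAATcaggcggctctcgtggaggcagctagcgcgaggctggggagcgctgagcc
HMGN2, chr1:26472190-26472439, plus strand: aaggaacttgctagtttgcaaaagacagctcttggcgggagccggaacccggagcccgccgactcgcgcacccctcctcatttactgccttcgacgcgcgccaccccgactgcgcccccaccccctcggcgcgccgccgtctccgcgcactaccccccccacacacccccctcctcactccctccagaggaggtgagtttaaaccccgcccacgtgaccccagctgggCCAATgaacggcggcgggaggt
HMGB1 and HMGB3 each have 3 matches on the printed strand of the window shown, at 103, 59 and 28 bases before the start of HMGB1 and at 144, 101 and 55 bases before that of HMGB3. HMGN2 has 1, at 22 bases. The E-box CACGTG was found in HMGN2 alone of the 8 (7.73% of all genes) and the GC box GGGCGG in 6 of 8 (46.2% of all genes). The core of the cell cycle element CHR, TTTGAA or TTCGAA, was found in HMGB1 and HMGB3 (17.2% of all genes). For HMGB1, both the CHR core and the GC box lay outside the window shown. The consensus p53 half-site was found in HMGN3 alone (6.80% of all genes). No match says only that the letters are not in the window. All motifs were searched on both strands. In the authors' deposited table none of the 10 members is marked as meeting the p53 cistrome, a mark that 124 of its 35987 rows carry.

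Against this background, 4 of the 10 members differed between p53 KO and p53 WT by edgeR's quasi-likelihood test with Benjamini-Hochberg adjustment over all 22352 genes tested. HMGB1 and HMGB2 were higher in p53 KO, and HMGA2 and HMGN2 were lower. Over all genes tested, 26.5% passed the same threshold (adjusted p under 0.05), 12.1% higher and 14.4% lower in p53 KO. Among the 9810 genes at or above the mean of the least abundant member, 12.8 CPM, 39.2% passed. The share of members called is thus near that of genes of like abundance and is no result about the members as a set. Groups did not overlap for the same 4 members, against 40.8% of all genes. The median log2 fold change of the members was 0.13, beside 0.0052 over all genes.

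HMGA1, the most abundant member, encodes an AT-hook protein of proliferating and tumour cells. It stood at 1494, 1432 and 1452 CPM in p53 WT replicates 1, 2 and 3 and at 1509, 1427 and 1629 CPM in p53 KO replicates 1, 2 and 3. The groups overlapped, and p53 KO replicate 3 was the highest library. The log2 fold change, p53 KO over p53 WT, was 0.061 (SE 0.085), with a 95% interval of -0.12 to 0.24 (adjusted p = 0.67 by edgeR).

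HMGA2, the other AT-hook gene, moved most of all members. It was at 81.9, 91.6 and 75.1 CPM in p53 WT and at 48.4, 50.4 and 40.2 CPM in p53 KO. All 3 p53 KO libraries were below all 3 p53 WT libraries. HMGA2 fell by 0.84 on the log2 scale (SE 0.12, 95% interval -1.10 to -0.58, adjusted p = 0.000146 by edgeR), to 0.56 of its p53 WT level. In size, this is the 76.7th percentile of all tested genes. Its 50 nearest expressed genes had a median of -0.013, and HMGA2 stood at -0.82 (adjusted p = 0.000223 by edgeR) once that local median was taken off.

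HMGB1, which bends DNA in the nucleus and acts as a danger signal when released from cells, was at 310, 301 and 292 CPM in p53 WT and at 364, 347 and 372 CPM in p53 KO. The groups did not overlap, although the difference was small: the log2 fold change was 0.26 (SE 0.086, adjusted p = 0.037 by edgeR), a ratio of 1.20. This call was lost in 5 of the 6 edgeR fits that left out 1 library. Without p53 WT replicates 1, 2 and 3 it had adjusted p = 0.0806, 0.147 and 0.143, and without p53 KO replicates 1 and 2 adjusted p = 0.0925 and 0.0528, at log2 fold changes of 0.23 to 0.28. The authors' deposited table gives HMGB1 an adjusted p of 0.0686, and edgeR gave adjusted p = 0.148 after the local median was taken off.

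HMGB2, whose transcript is known to be highest late in the cell cycle, was at 177, 163 and 176 CPM in p53 WT and at 249, 240.0 and 262 CPM in p53 KO. Every p53 KO library was above every p53 WT library. HMGB2 rose by 0.54 on the log2 scale (SE 0.091, 95% interval 0.35 to 0.74, adjusted p = 0.000499 by edgeR), a ratio of 1.46. Its 50 neighbours had a median of -0.066, and 47 of them had a lower log2 fold change than HMGB2. With that median taken off, its log2 fold change was 0.61 (adjusted p = 0.000279 by edgeR).

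HMGB3, linked to stem and progenitor cells, was at 66.1, 58.9 and 60.4 CPM in p53 WT and at 62.1, 54.7 and 64.4 CPM in p53 KO. The ranges overlapped. The log2 fold change was -0.035 (95% interval -0.27 to 0.20, adjusted p = 0.857 by edgeR). So within the HMGB family, HMGB1 and HMGB2 were called higher and HMGB3 was not called; the differences between the members were not tested.

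**Figure D1:**
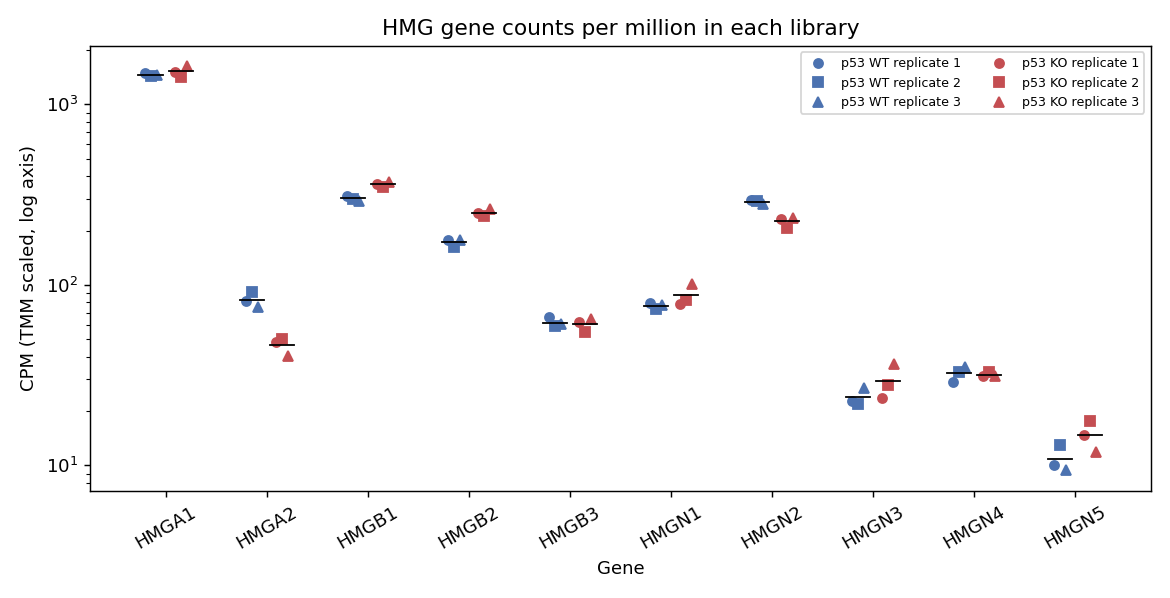
CPM (TMM scaled, log axis) of the 10 HMG genes in the 3 p53 WT libraries (blue) and the 3 p53 KO libraries (red), with a bar at each group's mean. The groups are apart for HMGA2, HMGB1, HMGB2 and HMGN2 and overlap for the other 6 genes.

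HMGN1 and HMGN2 are the main nucleosome-binding HMGN proteins. HMGN2 was at 294, 293 and 281 CPM in p53 WT and at 232, 206 and 236 CPM in p53 KO. The groups did not overlap, and the log2 fold change was -0.37 (SE 0.091, adjusted p = 0.00822 by edgeR), a ratio of 0.776. HMGN2 lies among lower genes: the median of its 50 neighbours was -0.27, and 17 of them were called lower and 7 higher. With that median taken off, HMGN2 stood at -0.095 (adjusted p = 0.537 by edgeR). Of its 50 neighbours, 19 had a lower log2 fold change than HMGN2.

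HMGN1 was at 79.0, 73.3 and 77.2 CPM in p53 WT and at 78.2, 82.7 and 102 CPM in p53 KO. Only p53 KO replicate 3 stood well above the rest. Its log2 fold change was 0.19 (95% interval -0.052 to 0.44, adjusted p = 0.252 by edgeR), and 0.084 without p53 KO replicate 3. Its neighbours on chromosome 21 had a median of 0.14, with quartiles of -0.16 and 0.57. Of these 50 genes, 18 were called higher and 7 lower.

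HMGN3, at 22.6, 21.9 and 26.9 CPM in p53 WT and 23.6, 27.9 and 36.4 CPM in p53 KO, had its highest value in the same p53 KO library. The log2 fold change was 0.30 (95% interval -0.051 to 0.64, adjusted p = 0.21 by edgeR). It was 0.13 without p53 KO replicate 3 and 0.44 without p53 KO replicate 1, past the threshold in neither. An antisense gene of HMGN3 has its own row. The libraries were stranded per the labels, but as the strand setting of the count is not given in the sources used here, reads of the overlapping pair cannot be told apart. HMGN4, an intronless relative of HMGN2, was at 28.9, 32.7 and 35.2 CPM in p53 WT and at 31.3, 32.9 and 31.3 CPM in p53 KO. The p53 KO values lay within the p53 WT range, and the log2 fold change was -0.019 (95% interval -0.28 to 0.24, adjusted p = 0.933 by edgeR).

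HMGN5, an X-linked HMGN protein with a long acidic tail, was the least abundant member. It was at 10.1, 13.0 and 9.37 CPM in p53 WT and at 14.6, 17.7 and 11.9 CPM in p53 KO. The ranges overlapped, since p53 KO replicate 3 was below p53 WT replicate 2. The log2 fold change of 0.45 (95% interval 0.038 to 0.86) did not pass after adjustment (adjusted p = 0.105 by edgeR). With 1 library left out it ran from 0.29 without p53 KO replicate 2 (adjusted p = 0.361 by edgeR) to 0.60 without p53 WT replicate 2 (adjusted p = 0.0785 by edgeR), and it passed only without p53 KO replicate 3, at 0.58 (adjusted p = 0.0293 by edgeR).

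**Figure D2:**
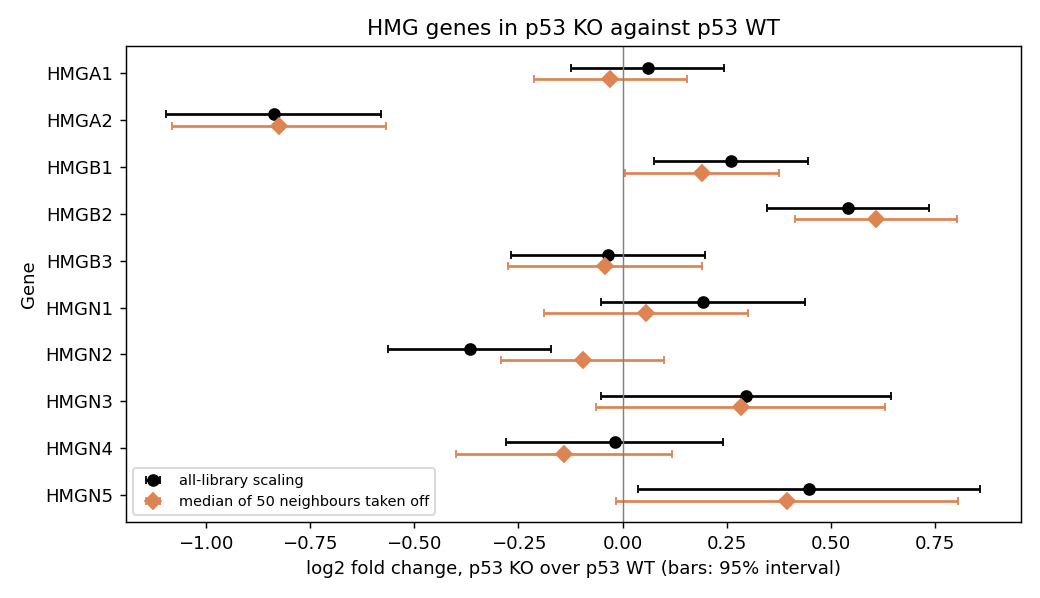
Log2 fold change (p53 KO over p53 WT, x axis) of each HMG gene with its 95% interval, with library-wide scaling (black circles) and with the median of the 50 nearest expressed genes taken off (orange diamonds). HMGA2 and HMGB2 stay apart from 0 on both scales, while HMGN2 moves from -0.37 to -0.095. The orange intervals leave out the spread between neighbours.

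The local scale sets a member against the median of the genes around it. That median was taken off as a fixed value. The p-values and intervals on this scale therefore leave out the spread between neighbours. Copy number was not measured, and its part in the results was not tested. Across the table, 19.8% of genes passed once local medians were taken off. Rows without a local median, pseudogene rows among them, are in this share with nothing taken off. Of the members, HMGA2 and HMGB2 kept their calls and HMGB1 and HMGN2 did not. For HMGA2, 3 of its 50 neighbours had a lower log2 fold change, with 8 called higher and 6 called lower around it.

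**Figure D3:**
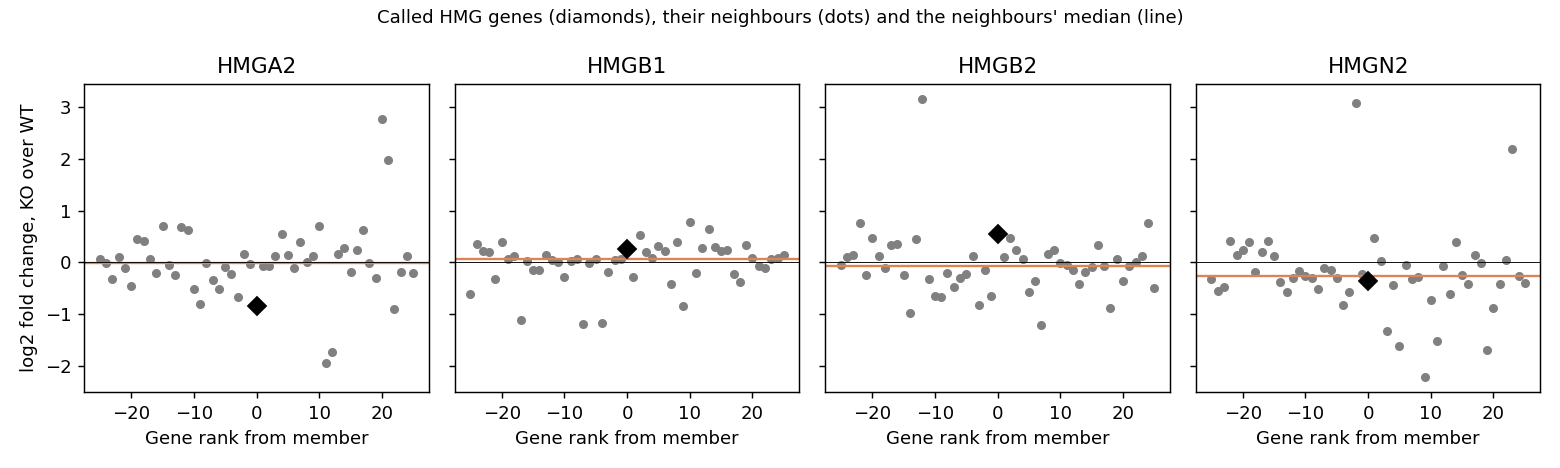
Log2 fold change (p53 KO over p53 WT, y axis) of the 4 called HMG genes (diamonds) and of up to 25 expressed protein-coding genes on either side in chromosome order (grey dots; x axis, rank from the member), with the neighbours' median as an orange line. The line lies near 0 for HMGA2, HMGB1 and HMGB2 and at -0.27 for HMGN2.

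Levels of different members were compared per length, as CPM per kilobase of the longest principal transcript in GENCODE 29. In p53 WT, HMGA1 led at 676 ± 14.7 (SD, n = 3), followed by HMGN2 at 243 ± 5.91, HMGB2 at 91.1 ± 4.396, HMGN1 at 55.3 ± 2.13 and HMGB1 at 54.9 ± 1.61. HMGN3 (27.3 ± 3.08), HMGN4 (26.4 ± 2.62), HMGA2 (18.5 ± 1.85), HMGB3 (17.4 ± 1.07) and HMGN5 (5.08 ± 0.895) came lower. Ranges of neighbours in this order overlapped for HMGN1 and HMGB1, for HMGN3 and HMGN4, and for HMGA2 and HMGB3. In p53 KO, the order of the first 3 was the same, HMGB2 reached 133 ± 5.90 against 189 ± 13.4 for HMGN2, and HMGA2, at 10.4 ± 1.22, fell below HMGB3, at 17.0 ± 1.43, without overlap. The order depends on the length used. Merged exon length is 15403 bases for HMGA2, against 4473 for its principal transcript. Per merged exon length, HMGA2 was below HMGB3 in both groups, at 5.38 against 15.6 in p53 WT and 3.01 against 15.2 in p53 KO. On that scale HMGB2, at 90.3, was no longer below HMGN2, at 89.5, in p53 KO, and HMGN1, at 14.99 in p53 WT, came below HMGN3, at 23.5, and HMGN4, at 25.3. The members together took 0.246% to 0.253% of all counts in p53 WT, against 0.254% to 0.272% in p53 KO.

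HMG genes have many processed pseudogenes, so reads can be split between near-identical copies. The table has 147 rows named as pseudogenes of a member, of which 77 held at least 1 count and 22 passed the filter. None of the 22 passed the threshold by edgeR, 5 had an unadjusted p under 0.05, and DESeq2 and limma-voom called 1 each. Pseudogene rows held 12.6% to 16.9% of the summed counts of HMGN2 and its copies, 6.33% to 11.3% for HMGB1, 5.16% to 10.3% for HMGN1 and 0.715% to 0.876% for HMGA1. For HMGB3 they held 1.15% to 3.55%, with a mean of 3.09% in p53 WT and 1.5% in p53 KO, a difference that was not tested. HMGA2, HMGN4 and HMGN5 have no such row, and the single row of HMGB2 held at most 0.0764%.

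The largest copies lay on the same side as their parents. HMGN2P5 was at 33.1 ± 3.22 CPM in p53 WT and 27.5 ± 2.36 CPM in p53 KO (SD, n = 3; log2 fold change -0.27, adjusted p = 0.143 by edgeR), beside -0.37 for HMGN2. HMGB1P5 was at 20.7 ± 5.38 and 30.8 ± 11.3 CPM (log2 fold change 0.58, adjusted p = 0.0895 by edgeR), beside 0.26 for HMGB1. The value of HMGB1P5 was 0.28 without p53 KO replicate 3 (adjusted p = 0.34 by edgeR), and it passed without p53 KO replicate 1 (0.81, adjusted p = 0.0182) or p53 WT replicate 3 (0.79, adjusted p = 0.0403). HMGN2P3, HMGA1P2 and HMGN2P6 had log2 fold changes of -0.26, 0.30 and -0.87, and the last had adjusted p = 0.0545 by edgeR. The other 6 rows with a mean of at least 1 CPM (HMGN1P38, HMGN1P3, HMGB1P3, HMGA1P8, HMGN2P46 and HMGA1P3) lay between -0.11 and 0.45. With pseudogene counts added to their parents, HMGB1 stood at 0.28 and HMGN2 at -0.35, and the same 4 members were called. The authors' deposited table, as p53 WT over p53 KO, gives log2 fold changes of 0.81 for HMGA2 (adjusted p = 1.35e-06), -0.56 for HMGB2 (adjusted p = 0.00479) and 0.34 for HMGN2 (adjusted p = 0.0345).

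**Figure D4:**
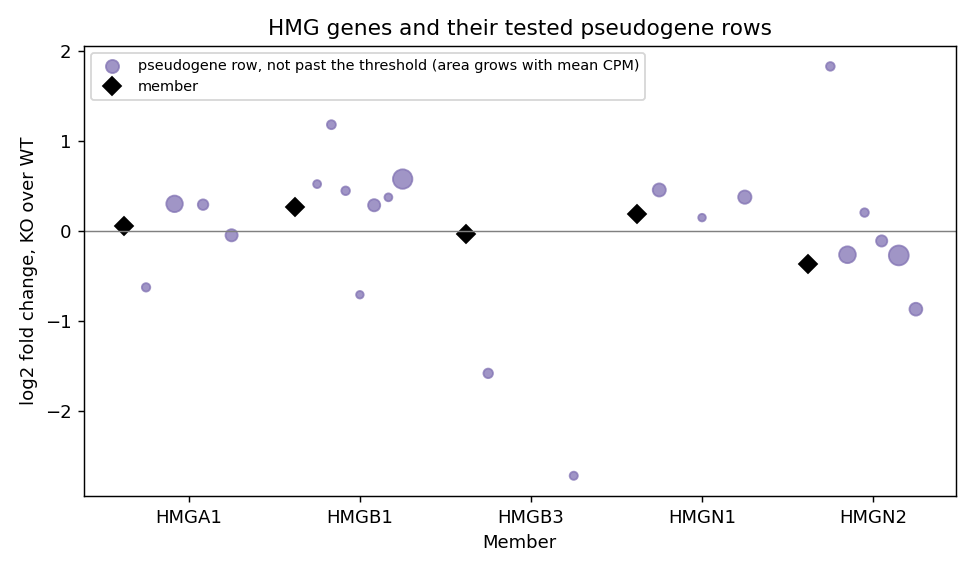
Log2 fold change (p53 KO over p53 WT, y axis) of the 5 HMG genes with tested pseudogene rows (diamonds) and of those 22 rows (purple circles, area growing with mean CPM). No pseudogene row passed the threshold, and the largest circles, HMGN2P5 and HMGB1P5, lie on the side of their parents.

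Genes that work with or beside the HMG proteins were taken from lists chosen with earlier results of these data known, and are given as counts, to be read against the 12.1% of all tested genes called higher and the 14.4% called lower (26.5% in all, and 39.2% at the abundance of the members). Among let-7 pathway genes, 6 of 16 tested fell and 2 rose, with a median log2 fold change of -0.29, beside 0.0052 over all genes. IGF2BP3, an mRNA-binding protein and itself a let-7 target, fell from 27.1 ± 4.16 to 7.91 ± 3.51 CPM (SD, n = 3). IGF2BP1, of the same list and named after its values were seen, went the other way. It rose from 1.40 ± 0.568 to 3.42 ± 0.640 CPM (log2 fold change 1.25, adjusted p = 0.0186 by edgeR). LIN28B, which blocks let-7 maturation, was named after its values were seen, and rose from 9.46 ± 2.13 to 21.0 ± 4.23 CPM (log2 fold change 1.17). DICER1, the nuclease that cuts microRNA precursors, had -0.91, but its neighbours had a median of -0.99, and it stood at 0.080 (adjusted p = 0.758 by edgeR) with that taken off. ZCCHC6, a uridylyltransferase acting on let-7 precursors, had -1.20, and -0.72 (adjusted p = 0.0196 by edgeR) on the local scale. After local medians were taken off 5 genes of the list were called, and 4 of the 8 kept their call.

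Linker histones, which HMGN and HMGB proteins displace from nucleosomes, had 2 of 6 tested members higher and 1 lower, against 12.1% and 14.4% of all genes. H1FX rose from 186 ± 21.5 to 320 ± 61.9 CPM (SD, n = 3; log2 fold change 0.78), with 0.42 (adjusted p = 0.0373 by edgeR) after the median of 50 neighbours was taken off and 0.31 (adjusted p = 0.126 by edgeR) with 20 neighbours, and HIST1H1C fell from 95.6 ± 10.6 to 72.6 ± 3.25 CPM (-0.40). The call of HIST1H1C was lost without p53 WT replicate 1 (adjusted p = 0.0665 by edgeR). HIST1H1E was called at 1.21 and 3.06 CPM, with groups that overlapped, and lost its call when p53 WT replicate 2, p53 WT replicate 3 or p53 KO replicate 1 was left out (adjusted p = 0.159, 0.135 and 0.302 by edgeR). Polyadenylated RNA was sequenced, so replication-dependent histone transcripts are poorly covered.

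Of 30 tested proteins with an HMG box outside the HMGB family, 6 rose and 6 fell, with a median of 0.025. That share is near the 39.2% called among genes at the abundance of the HMG members and is no result about the list. TCF7L1, a transcription factor of the WNT pathway, rose from 8.002 ± 0.821 to 19.9 ± 3.17 CPM (SD, n = 3). HMGXB4 had -0.57 and lost its call with the local median taken off (-0.10, adjusted p = 0.615 by edgeR). On the local scale, 5 genes of the list were called, all higher, and 4 of the 12 kept their call. Among 17 histone chaperones 3 rose and 3 fell, a share between the 26.5% of all genes and the 39.2% at the abundance of the HMG members. ANP32E, which removes the variant H2A.Z, had a log2 fold change of 0.73, SUPT16H, a subunit of FACT, had -0.68, and HIRA, which deposits H3.3, had -0.61. SSRP1, also of FACT and named after its values were seen, had 0.069 (adjusted p = 0.639 by edgeR). With the local median taken off, HIRA stood at -0.35 (adjusted p = 0.0206 by edgeR).

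Of 8 tested genes for HMGB1 receptors, their adaptors and nuclear export, 2 rose and none fell, a share near the 26.5% of all genes called. TLR4, a receptor for extracellular HMGB1, rose from 21.4 ± 5.14 to 50.5 ± 5.28 CPM, and its adaptor MYD88 rose from 4.37, 4.62 and 4.77 CPM in p53 WT to 12.2, 9.99 and 10.8 CPM in p53 KO. Both kept their call on the local scale, at log2 fold changes of 1.15 and 1.27. LY96, the co-receptor of TLR4, was at 1.57 and 0.923 CPM and was not called (adjusted p = 0.26 by edgeR). AGER, the receptor RAGE, was named after its values were seen and had a log2 fold change of -0.22 (adjusted p = 0.79 by edgeR).

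Beside HMGB2, a list of 24 G2/M genes, added after seeing the data, had 11 members higher and 1 lower in p53 KO, with a median of 0.24. Over all genes 12.1% were called higher and 14.4% lower, and 39.2% were called at the abundance of the HMG members. PRC1, which bundles spindle microtubules, had a log2 fold change of 1.14 (0.60 with the local median taken off), CCNB1, the mitotic cyclin B1, had 0.73, and UBE2C, an enzyme of the anaphase-promoting complex, had 0.77, beside 0.54 for HMGB2. On the local scale 10 of the list were called, all higher, against 19.8% of all genes called in either direction. Of the 12 first called, 8 kept their call. The part of cell cycle position in the HMGB2 result was not tested.

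**Figure D5:**
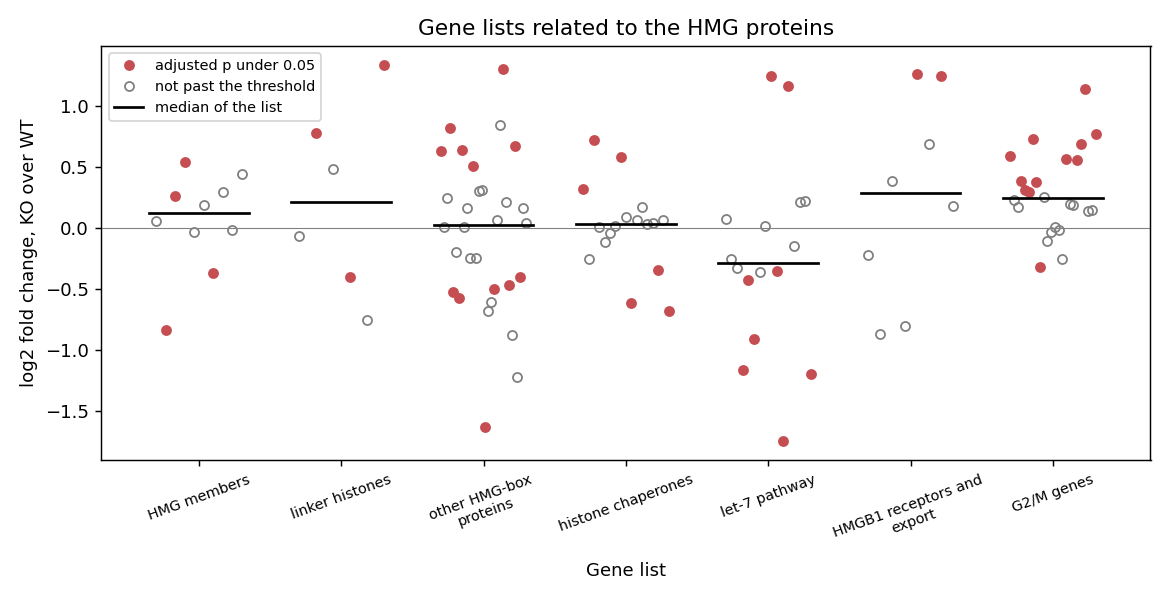
Log2 fold change (p53 KO over p53 WT, y axis) of each tested gene in the HMG family and the 6 related lists (x axis), filled red where adjusted p by edgeR was under 0.05 and open grey otherwise, with a bar at each list's median. Medians run from -0.29 in the let-7 pathway to 0.29 for HMGB1 receptors and export.

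The genes whose levels over the 6 libraries were most like those of HMGA2, by Euclidean distance between centred log2 CPM values among 10653 genes, were PDGFC, TMEM254 and MGST1, at distances of 0.163, 0.169 and 0.183 against a median of 1.14. PDGFC, a growth factor, was at 122 ± 9.76 CPM in p53 WT and 69.9 ± 4.402 CPM in p53 KO, and MGST1, a microsomal glutathione transferase, at 125 ± 15.01 and 68.0 ± 3.86 CPM (SD, n = 3). TMEM254 had a log2 fold change of -0.77, and -0.30 (adjusted p = 0.221 by edgeR) with the local median taken off.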

How the data were processed

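The authors deposited raw counts per gene symbol for 6 libraries, all used here. The submitters' processing notes name GRCh37 (hg19) and the tools DESeq2 1.3.6, HISAT2 2.1.0 and fastp 0.21.0. Counting tool, annotation and strand setting: not given in the sources used here. The authors' deposited comparison table holds, per the file headers, p-values, a test score, a log2 fold change and that value's standard error, and one signal per gene, the mean normalised count. In all 35987 rows the sign of the fold change is opposite to that of the score, and CDKN1A is positive, so its positive values were taken to mean higher in p53 WT. Whether a gene meets a p53 cistrome is marked per the file headers.

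Counts were tested with edgeR 4.0.16 (R 4.3.3; quasi-likelihood F-test, robust, TMM factors, filterByExpr), which kept 22352 genes and all 10 members, with Benjamini-Hochberg adjustment over all of them and a threshold of 0.05. SE is the size of the log2 fold change over the square root of F. Alternatives were other scaling factors and filters, DESeq2 1.42.0, limma-voom (limma 3.58.1), a threshold of 0.01, the replicate number as a block, each library left out, pseudogene rows added, and a local median of the 50 nearest expressed genes as offset. Neighbours were found by the order of protein-coding genes in RefSeq (GRCh38.p14), which is not the build named by the submitters. Genes for which no local median was found kept an offset of 0. The setting with 20 neighbours and the G2/M list were added after seeing the data. The members and lists were chosen with earlier results of these data known. Named are all members, pseudogene rows of at least 1 CPM, the 3 smallest adjusted p of each list, and the 3 genes most like HMGA2 among those averaging 10 CPM or more. Some genes that this rule names are not reported here. Where no read was seen, a count of 0 allows up to 3 counts, 0.0381 to 0.150 CPM, for counting error only. Replicates were not copies (lowest chi-square per degree of freedom 16.7). Simulated counts for p53 KO against p53 WT were also tested (21585 genes run). Of 106 genes changed by 0.5 on the log2 scale 9.43% were recovered, and of 94 changed by 1, 47.9%, over all levels of abundance. Another 5 genes were called without a change. No other genes were changed in the simulation, while 26.5% were called in the data. The shares recovered therefore do not give the power of the real comparison.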

Additional observations from a re-analysis of the deposited data

How the results depend on the processing

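Over 18 other settings, HMGA2 (-0.91 to -0.74) and HMGB2 (0.50 to 0.76) kept direction and call in every one. HMGB1 kept its direction and lost its call in 10, and HMGN2 lost its call only under the local medians, at -0.095 and -0.069. The number of members called was 2 with the median of 50 or of 20 neighbours taken off, and 3 to 5 with 1 library left out. A threshold of 0.01 left 3758 genes of 5924 and 1 linker histone of 3. Pseudogene rows called, 0 of 22, became 1 without a filter, with DESeq2, with limma-voom and with the replicate block, and 0 to 1 with 1 library left out. With 50 neighbours taken off, 5 HMG-box proteins (of 12) and 5 let-7 pathway genes (of 8) were called. The cause of these shifts was not tested.

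Same-numbered libraries did not deviate together (correlations 0.0098, 0.078 and -0.13), so the numbers were not taken as pairs. With the replicate block 3 members were called, HMGB1 having 0.26 with adjusted p = 0.0976 by edgeR.

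DICER1, called at -0.91, turned to 0.080 and 0.12 with 50 and 20 neighbours taken off. The other sign changes were in genes past no threshold. HMGA1 had -0.029 and -0.012 on the local scales and HMGN1 -0.10 with 20 neighbours. HMGB3 had 0.0096 with 20 neighbours, and -0.072 to 0.027 with 1 library left out, including 0.0070 without p53 WT replicate 1. HMGN4 had 0.014 with upper-quartile factors, 0.0028 without factors, 0.0077 with limma-voom, and -0.10 to 0.039 with 1 library left out, including 0.0041 without p53 KO replicate 3. HMGN2P46 had 0.25 with limma-voom. With 1 library left out, HMGN2P46 ran from -0.35 to 0.30, HMGN2P3 from -0.50 to 0.11, HMGN1P3 from -0.19 to 0.83 and HMGA1P8 from -0.29 to 0.12.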
